A study of Mus musculus with 13 samples.

Results

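The genes described here are 10 markers of renal tubule injury and repair: Havcr1, Lcn2, Krt8, Krt18, Krt20, Vcam1, Spp1, Clu, Sox9 and Cd44. They were chosen by gene symbol, and all 10 were among the 35013 gene symbols of the count table and passed the filter on low counts that left 16468 genes to test. The RNA came from kidneys of female mice and was sequenced in 13 libraries. The labels do not say that the libraries of a group came from separate mice, so p-values here measure the spread between libraries. Every mouse carried Megalin3'Cre-Ert, a tamoxifen-inducible Cre driven from the megalin promoter of proximal tubule cells, and 1 floxed Uprt allele, and all were given tamoxifen. The mice were also given 4-thiouracil. Uprt (uracil phosphoribosyltransferase) lets cells build 4-thiouracil into new RNA, which was then captured through its thiol group, selected for poly-A tails and sequenced. The 4 Spns1 KO libraries came from Spns1 flox/flox mice without iron overload. The 5 WT libraries came from mice without iron overload, whose Spns1 genotype is Spns1 WT in the labels and Spns1 flox/+ in the study's methods. The 4 FeO (iron overload) libraries came from mice that had the WT genotype. These mice had received iron sucrose by intraperitoneal injection, at 12 mg elemental iron per day for 3 days, with the kidneys taken 1 week later. Ages are not given in the sources used here. Counts per library ran from 31809135 to 71296474 in Spns1 KO, from 23068023 to 37362311 in WT and from 25986133 to 29981814 in FeO.

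Injured tubule cells lose parts of their transport program and switch on genes that are low in the resting epithelium. Some of these encode surface or secreted proteins used as urine markers of damage (Havcr1, the phosphatidylserine receptor KIM-1, and Lcn2, the siderophore-binding lipocalin NGAL). Others encode keratin filaments of simple epithelia, adhesion molecules, secreted glycoproteins, or Sox9, a transcription factor of regenerating tubule cells. Several are also expressed by other cells of an uninjured kidney: Krt8 and Krt18 in the collecting duct, Spp1 in distal segments, and Cd44 and Spp1 in leukocytes.

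The targeted gene did not separate the groups. Spns1 stood at 39.0, 44.5, 36.6 and 59.0 CPM in the libraries labelled Spns1 KO and between 39.2 and 62.9 CPM in WT, with a log2 fold change of -0.31 (SE 0.18, edgeR adjusted p = 0.226). Here CPM is the count scaled to the library's total after TMM scaling. The floxed part of the gene is 1 exon, and with counts per gene its loss could not be checked here. Spns1 KO below therefore means the libraries so labelled. Separately from these libraries, the paper reports that Spns1 RNA and protein were lost from proximal tubules of Megalin3'Cre-Ert mice with Spns1 flox/flox. The labelled cell type is proximal tubule, and its 13 marker genes in the table summed to 7117 to 9831 CPM in WT, 14960 to 17070 CPM in Spns1 KO and 6120 to 17770 CPM in FeO. Markers of other cells were present in every library as well. The 5 genes of collecting duct principal cells summed to 262.6 to 474.9 CPM in WT, 226.8 to 379.6 CPM in Spns1 KO and 448 to 1142 CPM in FeO. The 10 macrophage genes summed to 57.96 to 73.27, 79.93 to 128.4 and 101.1 to 184.8 CPM in the same order. No marker on these 3 lists was at 0 in any library. The RNA was captured from whole kidneys. Differences in cell number, in RNA per cell and in how well the capture selected tagged RNA therefore cannot be told apart. Levels also moved with transcript length: the slope of log2 CPM on log2 length was 0.070 to 0.305 in WT, -0.134 to 0.037 in Spns1 KO and -0.198 to -0.095 in FeO. The median transcript length was 1942.5 bases for the 10 markers and 3006 bases for the genes tested.

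More of these markers were called in iron-loaded than in Spns1 KO kidneys. A gene is called when its adjusted p (edgeR's quasi-likelihood test, Benjamini-Hochberg adjustment over all 16468 genes) fell below 0.05 and the log2 fold change exceeded 0.5 up or down. In FeO against WT, 5 of the 10 markers were called up (Lcn2, Krt8, Krt18, Clu and Cd44) and 0 down, where 22.4% of all genes tested were called up and 19.7% down. In Spns1 KO against WT, 1 was called up (Spp1) and 0 down, against a background of 14.0% up and 7.55% down. That count depended on the fit: DESeq2 called 2 up (Spp1 and Clu) and 2 down (Havcr1 and Cd44), and limma-voom, library totals and a fit of only the 2 groups each called 3. In Spns1 KO against FeO, 4 were called down (Havcr1, Krt8, Krt18 and Cd44) and 0 up, with backgrounds of 8.10% down and 6.76% up. The 3 comparisons share libraries and are not independent. Leaving out 1 library moved the Spns1 KO against WT count of 1 to 2 (without Spns1 KO 3, Spns1 KO 4, WT 5, FeO 3 or FeO 4) or 3 (without FeO 1 or FeO 2). The median log2 fold change of the 10 markers was -0.12 in Spns1 KO against WT (all genes -0.045), 1.15 in FeO against WT (all genes -0.011) and -0.65 in Spns1 KO against FeO (all genes 0.028).

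**Figure D1:**
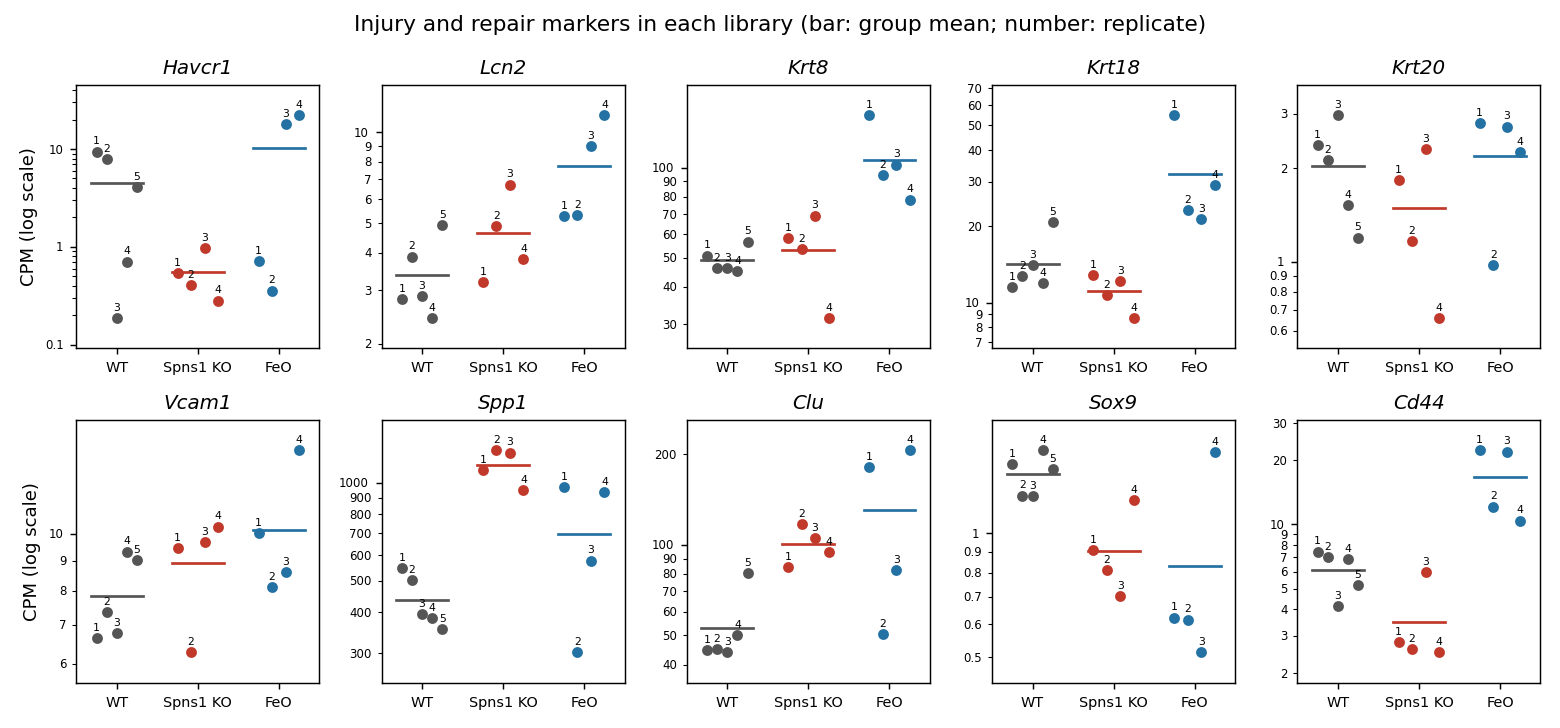
Level of each of the 10 markers in every library, in CPM on a log axis, with 1 point per library, its replicate number beside it and a bar at the group mean (WT n = 5, Spns1 KO n = 4, FeO n = 4). All 4 Spns1 KO libraries lie above all 5 WT libraries for Spp1, and all 4 FeO libraries lie above all WT libraries for Lcn2, Krt8, Krt18 and Cd44.

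The groups' ranges did not overlap for 3 of the 10 markers in Spns1 KO against WT (Spp1 and Clu higher, Sox9 lower), where 22.4% of all genes tested had separate ranges. They did not overlap for 4 in FeO against WT (background 33.4%) and for 3 in Spns1 KO against FeO (background 17.4%). On this measure the shares in both comparisons with WT were near those of all genes.

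**Figure D2:**
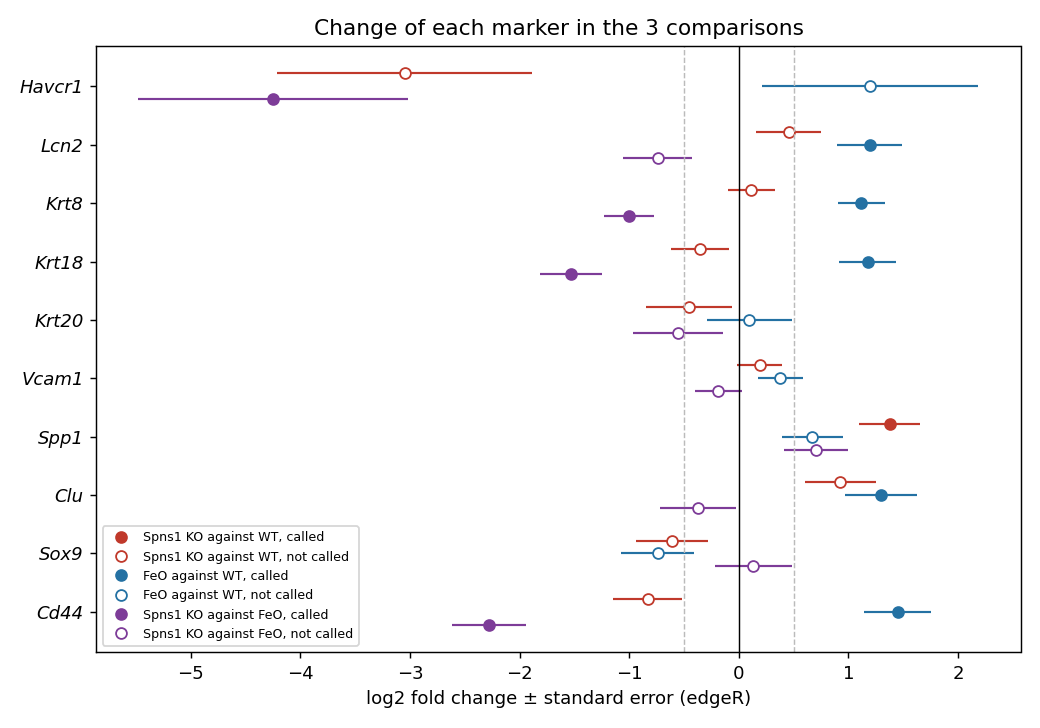
Log2 fold change of each marker in Spns1 KO against WT, FeO against WT and Spns1 KO against FeO, with bars of 1 standard error from edgeR. Filled points were called, open points were not, and dashed lines mark log2 fold changes of 0.5 in either direction. Spp1 is the called point of Spns1 KO against WT, while Lcn2, Krt8, Krt18, Clu and Cd44 are the called points of FeO against WT.

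Per length, the markers covered a wide range of levels in WT. Levels between genes are given as RPKM, the CPM per kilobase of transcript. Spp1 was the highest at a mean of 290 RPKM, followed by Clu at 29.2, Krt8 at 25.02, Krt18 at 9.90 and Lcn2 at 3.70 RPKM. Below them stood Vcam1 at 2.26, Havcr1 at 2.20, Cd44 at 1.09, Krt20 at 1.06 and Sox9 at 0.336 RPKM. The WT ranges of neighbours in this order overlapped for Clu and Krt8, for Lcn2 and Vcam1, for Vcam1 and Havcr1, for Havcr1 and Cd44 and for Cd44 and Krt20, so their order is not set by these libraries. In Spns1 KO, Havcr1 came ninth of the 10, at 0.270 RPKM, and in FeO it came sixth, at 5.08 RPKM, in both orders with overlapping neighbours. Spp1 was highest and Sox9 lowest in all 3 groups.

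The start regions of the called markers are shown so that the keratin pair and the genes that rose can be compared at the sequence level. RefSeq windows on GRCm38.p6, from 250 bases before the annotated start to 50 after it, were held for 7 of the 10 markers, with Vcam1, Clu and Sox9 unmatched. The windows below are on the gene's strand: Spp1 at chr5:104434861-104435160 (plus), Lcn2 at chr2:32387690-32387989 (minus), Krt8 at chr15:102004293-102004592 (minus), Krt18 at chr15:102027966-102028265 (plus) and Cd44 at chr2:102901616-102901915 (minus). Capitals mark a match to 1 of the 4 motifs searched on both strands.
Spp1: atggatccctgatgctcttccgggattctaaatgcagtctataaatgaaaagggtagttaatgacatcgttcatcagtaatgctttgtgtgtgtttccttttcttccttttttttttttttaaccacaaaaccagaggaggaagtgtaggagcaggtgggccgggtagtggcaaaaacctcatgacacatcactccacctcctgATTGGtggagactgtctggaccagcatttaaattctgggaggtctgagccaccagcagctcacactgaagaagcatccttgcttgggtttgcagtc
Lcn2: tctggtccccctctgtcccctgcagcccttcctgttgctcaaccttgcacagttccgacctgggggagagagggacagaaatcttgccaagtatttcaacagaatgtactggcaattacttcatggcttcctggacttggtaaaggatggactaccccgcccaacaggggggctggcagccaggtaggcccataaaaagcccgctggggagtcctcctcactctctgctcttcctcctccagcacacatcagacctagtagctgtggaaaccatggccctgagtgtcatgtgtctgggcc
Krt8: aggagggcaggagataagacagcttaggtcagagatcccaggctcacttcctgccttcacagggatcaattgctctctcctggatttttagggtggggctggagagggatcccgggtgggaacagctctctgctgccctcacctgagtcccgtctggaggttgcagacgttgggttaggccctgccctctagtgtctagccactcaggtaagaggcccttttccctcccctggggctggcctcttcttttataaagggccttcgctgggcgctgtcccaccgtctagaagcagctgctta
Krt18: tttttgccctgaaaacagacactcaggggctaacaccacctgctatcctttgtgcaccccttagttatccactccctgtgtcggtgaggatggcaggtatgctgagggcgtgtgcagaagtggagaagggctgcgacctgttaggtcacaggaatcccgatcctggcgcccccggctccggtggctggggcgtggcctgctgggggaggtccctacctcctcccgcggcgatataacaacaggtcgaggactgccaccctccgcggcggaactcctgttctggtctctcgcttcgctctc
Cd44: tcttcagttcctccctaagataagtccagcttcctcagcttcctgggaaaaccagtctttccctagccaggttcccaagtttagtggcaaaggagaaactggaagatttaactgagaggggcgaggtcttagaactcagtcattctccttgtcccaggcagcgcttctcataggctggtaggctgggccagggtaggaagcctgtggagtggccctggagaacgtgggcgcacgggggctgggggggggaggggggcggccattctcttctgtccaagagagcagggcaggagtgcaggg
The motifs were TGANTCA (AP-1), GGAATG (TEAD), AACAATG (SOX family) and CCAAT (NF-Y). They occur in 7.81%, 14.7%, 3.78% and 37.4% of the 32851 RefSeq windows, in that order. Spp1 held 1 CCAAT on the minus strand, 46 bases before its start, and the Lcn2, Krt8, Krt18 and Cd44 windows held none of the 4. Among the windows not printed, Krt20 held 3 TEAD matches, and 1 of the 3 Havcr1 windows held an AP-1 match. These matches describe letters in a window, not binding.

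Spp1 was the marker that rose in Spns1 KO. It encodes osteopontin, a secreted glycoprotein that binds integrins and CD44 and inhibits crystal growth in urine. The gene lies on chromosome 5 from 104435118 to 104441050 (GRCm38, plus strand) and overlaps an unclassified transcript, Gm42793, on the same strand that shares part of its sequence. In WT 1 to 5 the level of Spp1 was 548.1, 503.2, 395.0, 385.1 and 355.9 CPM, and in Spns1 KO 1 to 4 it was 1094, 1260, 1237 and 949.4 CPM. Every Spns1 KO library was above every WT library. The log2 fold change was 1.38 (SE 0.28, 2.60-fold, edgeR adjusted p = 0.00335), and it was called in each of the 8 other fits and 13 fits that left out a library, with values from 1.13 to 1.47. In FeO 1 to 4 Spp1 was 967.8, 301.3, 577.2 and 937.7 CPM. FeO 2 lay below all WT libraries and the other 3 above them, and the log2 fold change of 0.67 (SE 0.28, edgeR adjusted p = 0.0594) was not called. It reached 0.94 and was called when FeO 2 was left out, and was called by DESeq2 (0.68) and with no filter on low counts (0.74). Other settings lowered it: the 8 other fits ran from 0.35 to 0.74, and without FeO 1 it was 0.48 and not called. Spns1 KO and FeO did not differ past the limits for Spp1 (log2 fold change 0.71, SE 0.29, edgeR adjusted p = 0.111). The summed proximal tubule markers and the summed macrophage markers were also higher in every Spns1 KO library than in every WT library. Thick ascending limb markers had median sums of 2530 CPM in Spns1 KO and 1661 CPM in WT, with overlapping ranges. Distal convoluted and connecting tubule markers had medians of 1458 and 695.4 CPM, also with overlapping ranges. The principal cell and intercalated cell medians were not higher in Spns1 KO. In FeO 1 to 4 the thick ascending limb sum was 3557, 1571, 2230 and 3939 CPM. The part of these cells in the Spp1 values was not tested.

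Clu was called up in FeO and had a positive value in Spns1 KO that just missed the limits. It encodes clusterin, a secreted chaperone induced in damaged epithelia, and lies on chromosome 14 from 65968483 to 65981547 (plus strand). The CPM of Clu in WT 1 to 5 was 44.7, 44.9, 43.9, 50.2 and 80.4, and in Spns1 KO 1 to 4 it was 84.2, 117.4, 105.4 and 94.7. All Spns1 KO libraries lay above all WT libraries, but WT 5 came close to Spns1 KO 1. The log2 fold change was 0.93 (SE 0.33, edgeR adjusted p = 0.0506), just over the limit, so Clu was not called. It was called in 6 of the 8 other fits and in 6 of the 13 that left out a library, among them 1.15 without WT 5. With the length and GC trend of each library removed it fell to 0.65 (edgeR adjusted p = 0.173). With library totals it was 0.78 (edgeR adjusted p = 0.105), and neither of these was called. In FeO 1 to 4 Clu was 180.8, 50.4, 82.3 and 206.4 CPM, which gave a log2 fold change of 1.30 (SE 0.33, 2.46-fold, edgeR adjusted p = 0.00541). FeO 2 sat inside the WT range, so the groups overlapped despite the call. The difference between Spns1 KO and FeO was -0.37 (SE 0.34, edgeR adjusted p = 0.472). Clu was also read beside the intercalated cell list, whose 5 genes summed to 694.8, 195.9, 355.3 and 436.6 CPM in FeO 1 to 4, so that FeO 2 was lowest on both. FeO 2 was also lowest of its group on other sums, such as thick ascending limb (1571 CPM), principal cells (448 CPM) and macrophages (101.1 CPM). It was not lowest on the proximal tubule, podocyte or endothelium sums. FeO 4, highest for Clu, was below FeO 1 on the intercalated cell sum. The thick ascending limb sum (3557, 1571, 2230 and 3939 CPM) ranked FeO 1 to 4 as Clu did, and so did the urothelium and neutrophil sums. In Spns1 KO the intercalated cell sum was 180.4 to 259.4 CPM, with 212.1 to 350.6 CPM in WT, but its genes were called in both directions there: Atp6v1g3 and Slc4a1 up (log2 fold changes 1.01 and 1.43) and Foxi1 down (-0.85). Slc26a4, which gave most of the WT sum at a mean of 146.9 CPM, was at -0.79 and not called. The part of these cells in the Clu values was not tested.

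Krt8 and Krt18, the type II and type I keratins that pair into the filaments of simple epithelia, rose together in FeO. Their genes are neighbours on chromosome 15, 23697 bases apart and transcribed away from each other (Krt8 from 101996698 to 102004482 on the minus strand, Krt18 from 102028180 to 102032027 on the plus strand). The CPM of Krt8 in WT 1 to 5 was 50.8, 46.2, 46.1, 45.3 and 56.6, and in FeO 1 to 4 it was 149.7, 94.4, 102.4 and 78.3. The CPM of Krt18 in WT was 11.5, 12.8, 14.1, 11.9 and 20.8, and in FeO it was 54.8, 23.3, 21.4 and 29.0. No FeO library reached down to the highest WT library for either gene, and FeO 1 was the highest for both. The log2 fold changes were 1.12 for Krt8 (SE 0.21, 2.17-fold, edgeR adjusted p = 0.00111) and 1.18 for Krt18 (SE 0.26, 2.26-fold, edgeR adjusted p = 0.00261). Both were called in all 8 other fits and all 13 fits without a library, with Krt18 at 0.80 when FeO 1 was left out. The lowest Krt18 value was 0.75 (edgeR adjusted p = 0.032), after the length and GC trend of each library was removed. Both keratins share sequence with other genes: 36.0% of the 31-base words of Krt8 and 11.4% of those of Krt18 occur elsewhere, on either strand. For Krt8 these genes include Krt8-ps, Krt78 and Gm36026, a lincRNA that overlaps Krt8 on the other strand. The effect of this sharing on the counts was not tested.

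In Spns1 KO neither keratin was called against WT. Krt8 was 58.1, 53.6, 69.1 and 31.5 CPM and Krt18 was 12.8, 10.7, 12.2 and 8.73 CPM in Spns1 KO 1 to 4. The Spns1 KO and WT ranges overlapped for both genes, with Spns1 KO 4 below all WT libraries for both and Spns1 KO 2 also below them for Krt18. The log2 fold changes were 0.12 for Krt8 (SE 0.21, edgeR adjusted p = 0.718) and -0.35 for Krt18 (SE 0.26, edgeR adjusted p = 0.342), and the small Krt8 value changed sign under scaling by library totals, with the length and GC trend removed and without Spns1 KO 3. With that trend removed Krt18 was at -0.77 (edgeR adjusted p = 0.0542), still not called. Against FeO both were lower in Spns1 KO, by a log2 fold change of -1.0 for Krt8 (SE 0.23, edgeR adjusted p = 0.0115) and -1.53 for Krt18 (SE 0.28, edgeR adjusted p = 0.00483). The ratio of Krt8 to Krt18 RPKM averaged 2.62 ± 0.457 (SD, n = 5) for WT, 3.45 ± 0.639 (SD, n = 4) for Spns1 KO and 2.62 ± 0.757 (SD, n = 4) for FeO, with overlapping ranges throughout.

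Krt18 moved with a collecting duct marker across libraries. Among genes averaging 100 counts or more, the one most like Krt18 over the 13 libraries was Aqp2, the vasopressin-regulated water channel of principal cells (Pearson r = 0.985, Spearman rho = 0.912). Aqp2 was 134.6 to 250.1 CPM in WT, 102.5 to 159.5 CPM in Spns1 KO and 684.9, 277.2, 298.0 and 355.3 CPM in FeO 1 to 4. FeO 1 was thus highest for Aqp2, Krt18 and the summed principal cell markers, at 1142 CPM. WT 5 was highest within WT for Aqp2 and Krt18 as well, with a marker sum of 474.9 CPM. FeO 1 and WT 5 held these places on the intercalated cell sum too (694.8 and 350.6 CPM), and on the podocyte sum (650.8 and 293.5 CPM). The pattern was thus not particular to principal cells. On the proximal tubule sum FeO 1 was the lowest library (6120 CPM). Of the 5 principal cell markers, 4 were called up in FeO (22.4% of all genes), and their part in the keratin difference was not tested. The genes most like Krt8 were Med22 (Pearson r = 0.993, rho = 0.973), Lsr (0.983, rho 0.945) and Tuba1b (0.982, rho 0.951), none of them on the marker lists, and FeO 4 was lowest of its group for Krt8 but second to FeO 1 for Aqp2. All these correlations describe 13 libraries that include the group differences and share library effects such as length bias.

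**Figure D3:**
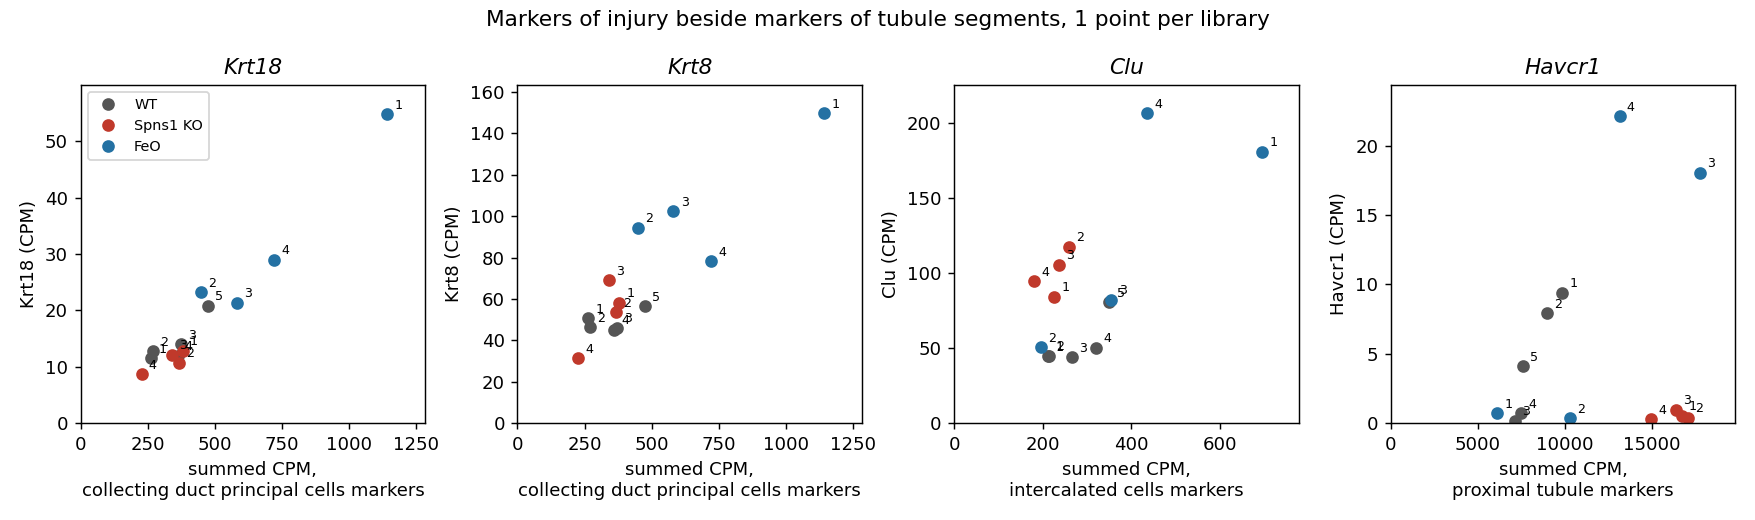
CPM of Krt18, Krt8, Clu and Havcr1 (vertical axes) beside the summed CPM of the principal cell, intercalated cell or proximal tubule markers of the same library (horizontal axes), 1 point per library with its replicate number. FeO 1 is highest on both axes for Krt18 and Krt8, and the 4 Spns1 KO libraries have proximal tubule sums of 14960 to 17070 CPM with Havcr1 under 1 CPM.

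Krt20, a type I keratin of urothelium and gut that appears in damaged proximal tubule, was low and not called in any comparison. It stood at 1.2 to 2.96 CPM in WT, 0.661 to 2.30 CPM in Spns1 KO and 0.973 to 2.79 CPM in FeO, and all 3 ranges overlapped. The log2 fold change of Krt20 was -0.46 in Spns1 KO (SE 0.39, edgeR adjusted p = 0.41) and 0.095 in FeO (SE 0.39, edgeR adjusted p = 0.853), the latter with a sign that changed between fits. The gene lies on chromosome 11 from 99428403 to 99438150 (minus strand), and the urothelium markers summed to 10.39 to 15.52 CPM in WT and 12.94 to 26.31 CPM in FeO.

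Cd44 had the largest called rise of the 10 in FeO. It encodes the hyaluronan receptor, which also binds osteopontin, and lies on chromosome 2 from 102811141 to 102901665 (minus strand). The CPM of Cd44 in WT 1 to 5 was 7.46, 7.03, 4.13, 6.85 and 5.17, and in FeO 1 to 4 it was 22.4, 12.1, 22.01 and 10.4. Every FeO library was above every WT library, with a log2 fold change of 1.45 (SE 0.30, 2.73-fold, edgeR adjusted p = 0.00186) that was called in all 8 other fits and all 13 without a library. In Spns1 KO 1 to 4 it was 2.80, 2.60, 5.98 and 2.501 CPM. Of these, 3 lay below all WT libraries and Spns1 KO 3 lay inside the WT range. The log2 fold change against WT was -0.83 (SE 0.31, edgeR adjusted p = 0.0663), not called, and it was -1.22 and called when Spns1 KO 3 was left out. It was also called by DESeq2, by limma-voom and under scaling by library totals. At 5614 bases Cd44 is the longest of the 10 transcripts. After the length and GC trend of each library was removed, the Spns1 KO value shrank to -0.54 (edgeR adjusted p = 0.277), not called. Directly compared, Spns1 KO was lower than FeO by a log2 fold change of -2.28 (SE 0.34, edgeR adjusted p = 0.00205), with separate ranges. Macrophages carry Cd44 too: 8 of the 10 macrophage genes were called up in FeO (22.4% of all genes) and 1 in Spns1 KO (14.0% of all genes), and their part in the Cd44 difference was not tested.

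Vcam1, an adhesion molecule for integrin alpha 4 beta 1 that marks tubule cells after incomplete repair and also activated endothelium, did not pass the limits in any comparison. It was 6.64, 7.36, 6.77, 9.33 and 9.03 CPM in WT, 9.46, 6.28, 9.69 and 10.3 CPM in Spns1 KO and 10.03, 8.11, 8.60 and 13.9 CPM in FeO. All ranges overlapped, and Spns1 KO 2 stood apart below the other 3 of its group. The log2 fold changes were 0.19 (SE 0.21, edgeR adjusted p = 0.52) in Spns1 KO and 0.38 (SE 0.21, edgeR adjusted p = 0.144) in FeO. The gene lies on chromosome 3 from 116109949 to 116129688 (minus strand), where an antisense transcript, Gm43109, overlaps it.

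Lcn2 rose in FeO and not past the limits in Spns1 KO. It lies on chromosome 2 from 32384633 to 32388252 (minus strand). Lcn2 was 2.80, 3.88, 2.87, 2.44 and 4.94 CPM in WT 1 to 5, 3.21, 4.90, 6.71 and 3.80 CPM in Spns1 KO and 5.28, 5.32, 9.03 and 11.4 CPM in FeO. All FeO libraries lay above WT, though FeO 1 and 2 exceeded WT 5 only narrowly, and Spns1 KO overlapped both groups. The log2 fold change was 1.2 in FeO (SE 0.30, 2.29-fold, edgeR adjusted p = 0.0051). At 915 bases Lcn2 is the shortest of the 10 transcripts, and after the length and GC trend of each library was removed the value fell to 0.64 (edgeR adjusted p = 0.055), no longer called. In Spns1 KO the log2 fold change was 0.45 (SE 0.30, edgeR adjusted p = 0.278) and -0.049 after that trend was removed, and between Spns1 KO and FeO it was -0.74 (SE 0.31, edgeR adjusted p = 0.114).

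By SD over mean of CPM, Havcr1 varied more within each group than any other marker. By highest over lowest library, Krt20 varied slightly more in Spns1 KO (3.49 against 3.42). The gene lies on chromosome 11 from 46735080 to 46779578 (plus strand), and 8.20% of its 31-base words occur in other genes such as Timd2. It was 9.39, 7.92, 0.189, 0.707 and 4.09 CPM in WT 1 to 5, from 6 to 345 counts. In FeO 1 to 4 it was 0.721, 0.357, 18.0 and 22.1 CPM, from 11 to 590 counts, and in Spns1 KO it was 0.537, 0.406, 0.969 and 0.283 CPM, from 12 to 36 counts. Thus FeO 3 and 4 stood above all WT libraries and FeO 1 and 2 beside the lowest WT libraries, while all Spns1 KO libraries were under 1 CPM and overlapped both groups. The WT mean was 4.46 ± 4.15 CPM (SD, n = 5), the FeO mean 10.3 ± 11.4 CPM (SD, n = 4) and the Spns1 KO mean 0.549 ± 0.299 CPM (SD, n = 4). Against WT, the log2 fold change was -3.05 in Spns1 KO (SE 1.16, edgeR adjusted p = 0.0679) and 1.2 in FeO (SE 0.99, edgeR adjusted p = 0.332), neither called. The Spns1 KO value was called by DESeq2 (adjusted p = 0.0346), under library totals, in the fit of only the 2 groups and without FeO 1 or FeO 2, with log2 fold changes from -3.15 to -3.03. The fit of all libraries called Spns1 KO lower than FeO (log2 fold change -4.25, SE 1.23, edgeR adjusted p = 0.032) although the ranges overlapped. That call was absent in 5 of the 13 fits without a library (Spns1 KO 1, 2 or 4, or FeO 3 or 4), under limma-voom and with the replicate block (edgeR adjusted p = 0.114). In WT 1 to 5 the proximal tubule markers summed to 9831, 8967, 7117, 7487 and 7605 CPM, and in FeO 1 to 4 to 6120, 10320, 17770 and 13160 CPM. Within each of these groups the 2 libraries highest for Havcr1 were also the 2 highest on that sum, whereas the Spns1 KO libraries had sums of 14960 to 17070 CPM with low Havcr1.

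Sox9 was the least abundant marker and was not called in any comparison. It is a SOX-family transcription factor of kidney progenitors and repairing tubule, on chromosome 11 from 112782224 to 112787760 (plus strand). Sox9 was 1.47, 1.23, 1.23, 1.59 and 1.43 CPM in WT, 0.909, 0.812, 0.701 and 1.203 CPM in Spns1 KO and 0.623, 0.616, 0.513 and 1.57 CPM in FeO. All Spns1 KO libraries and 3 of the 4 FeO libraries lay below all WT libraries, with FeO 4 near the top of the WT range. The log2 fold change was -0.61 in Spns1 KO (SE 0.33, edgeR adjusted p = 0.188). In FeO it was -0.74 (SE 0.34, edgeR adjusted p = 0.082) with all libraries, and it was called without FeO 4 (-1.22) and by limma-voom (-0.87).

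Of 96 related genes on 5 lists, 95 were in the table and 89 were tested. In Spns1 KO against WT 12 were called up and 10 down, and in FeO against WT 24 up and 16 down. The shares called over all genes tested were, for Spns1 KO, 14.0% (up) and 7.55% (down), with 22.4% (up) and 19.7% (down) for FeO. Further genes of injured and incompletely repaired epithelium gave most of the calls up: 20 of 36 rose and 3 fell in FeO (median log2 fold change 0.73), while 7 rose and 3 fell in Spns1 KO (median 0.075), the latter shares being near those of all genes (14.0% and 7.55%). In Spns1 KO against FeO 2 of these 36 were called up and 11 down, where 6.76% of all genes were called up and 8.10% down. The macrophage and principal cell sums given above were also higher in FeO, and their part in these calls was not tested. The count of 22 related genes called in Spns1 KO against WT depended on single libraries: it was 12, 13 and 11 without Spns1 KO 1, 2 and 3, 36 without Spns1 KO 4, 11 without WT 3 and 14 without WT 5.

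**Figure D4:**
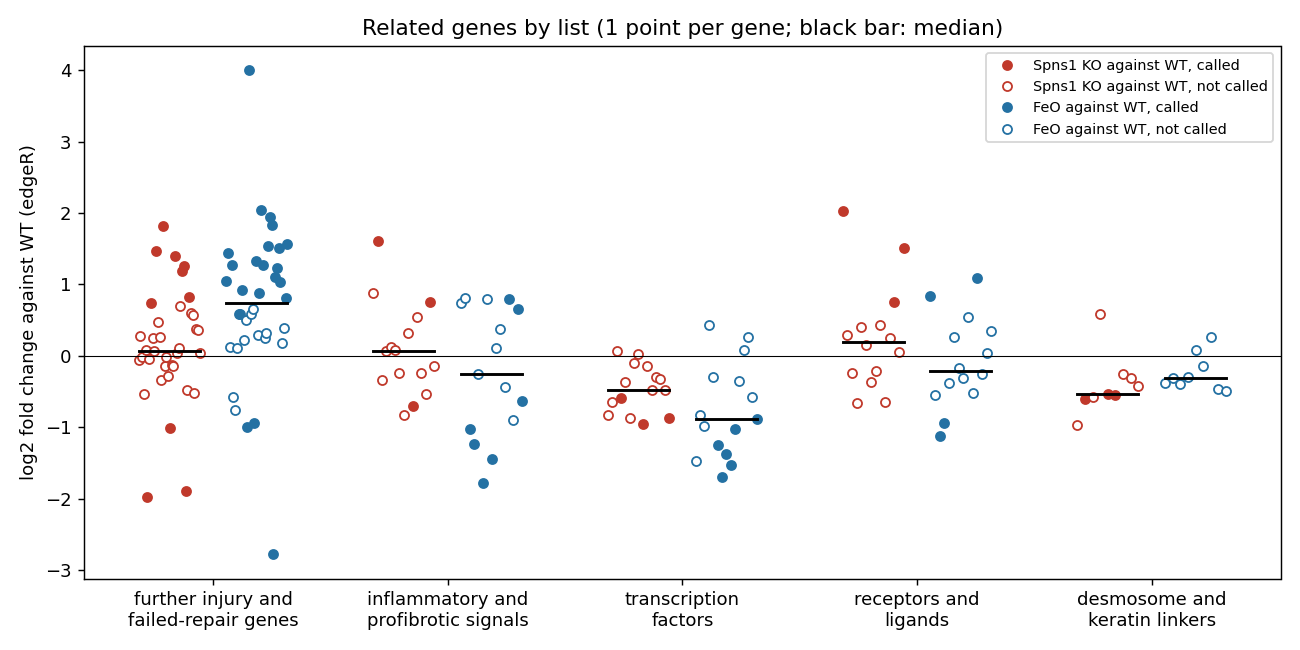
Log2 fold change against WT of every tested related gene, by list, in Spns1 KO and FeO, with 1 point per gene, filled where called, and a black bar at the list median. The medians of the injury and failed-repair list are 0.075 in Spns1 KO and 0.73 in FeO, and those of the transcription factors are -0.47 and -0.89.

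Gpnmb, a lysosomal glycoprotein of macrophages and stressed cells, averaged 3.51 ± 2.67 CPM (SD, n = 5) for WT, 2.78 ± 2.43 CPM (SD, n = 4) for Spns1 KO and 56.7 ± 31.3 CPM (SD, n = 4) for FeO. It rose in FeO by a log2 fold change of 4.00 (SE 0.70, edgeR adjusted p = 0.000692) and stood at -0.34 in Spns1 KO (SE 0.67, edgeR adjusted p = 0.735). Lgals3, the lectin galectin-3, rose in FeO by 2.04 on the log2 scale (SE 0.36, edgeR adjusted p = 0.000767), with ranges apart from WT. Both Gpnmb and Lgals3 were lower in Spns1 KO than in FeO, by log2 fold changes of -4.34 and -2.18. Other members of the list fell. Sox4, a transcription factor related to Sox9, was 228.6 ± 108 CPM in WT, 61.5 ± 79.3 CPM in Spns1 KO and 33.3 ± 9.64 CPM in FeO, with log2 fold changes of -1.89 (SE 0.64, edgeR adjusted p = 0.0432) and -2.78 (SE 0.67, edgeR adjusted p = 0.00417). For Sox4 the Spns1 KO range overlapped that of WT, while the FeO range lay below it. Cdkn1a, the cell cycle inhibitor p21, fell in Spns1 KO by 1.98 on the log2 scale (SE 0.39, edgeR adjusted p = 0.00263) with overlapping ranges, and its FeO value of -0.76 was not called.

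The transcription factors of the injury response moved down where they were called. In FeO 6 of 15 fell and 0 rose (median -0.89, with 19.7% of all genes called down), and in Spns1 KO 3 fell and 0 rose (median -0.47, with 7.55% of all genes called down). The AP-1 subunits Jun and Junb had log2 fold changes of -1.69 (SE 0.52) and -1.37 (SE 0.44) in FeO, and Fosl2 of -1.26 (SE 0.34), with edgeR adjusted p values of 0.0161, 0.0206 and 0.00859. Klf6, a zinc-finger factor of the early response, fell in both, by -1.53 (SE 0.34, edgeR adjusted p = 0.00277) in FeO and -0.96 in Spns1 KO (SE 0.34), where its edgeR adjusted p of 0.04995 was just under the limit. Among inflammatory and profibrotic signals, 2 of 15 rose and 5 fell in FeO (median -0.25), where 22.4% of all genes were called up and 19.7% down. In Spns1 KO 2 rose and 1 fell (median 0.063), which is close to the 14.0% up and 7.55% down of all genes. In FeO the chemokine Cxcl1 was at -1.79 (SE 0.69), the EGF-receptor ligand Hbegf at -1.44 (SE 0.50), and the matricellular genes Ccn2 and Ccn1 at -1.24 (SE 0.36) and -1.02 (SE 0.40). All 4 were called in FeO with ranges that overlapped WT, and none was called in Spns1 KO.

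Of 14 receptors and ligands of the markers, 3 rose and 0 fell in Spns1 KO (median 0.20, all genes 14.0% up), and 2 rose and 2 fell in FeO (median -0.21), below the 22.4% up and 19.7% down of all genes. Cd74, the invariant chain of MHC class II and a partner of Cd44, was 28.1 ± 3.59 CPM in WT, 114.2 ± 18.1 CPM in Spns1 KO and 50.3 ± 33.9 CPM in FeO. Its log2 fold changes were 2.02 (SE 0.32, edgeR adjusted p = 0.00076) and 0.84 (SE 0.31, edgeR adjusted p = 0.0393). Slc22a17, a receptor for lipocalin-2, was 9.23 ± 1.04 CPM in WT, 26.3 ± 2.96 CPM in Spns1 KO and 11.8 ± 6.80 CPM in FeO, and rose in Spns1 KO by a log2 fold change of 1.51 (SE 0.26, edgeR adjusted p = 0.00124), while its FeO value was 0.35 (SE 0.26, edgeR adjusted p = 0.28). The direct comparison called it higher in Spns1 KO than in FeO (log2 fold change 1.16, SE 0.28, edgeR adjusted p = 0.014). Lrp2 (megalin), which takes up filtered Lcn2 and whose promoter drives the Cre, was named after its values were seen: it was called up in Spns1 KO at 0.75 (SE 0.20, edgeR adjusted p = 0.0165) with overlapping ranges. Its FeO value was -0.26 (SE 0.21, edgeR adjusted p = 0.31), not called. Lrp2 is also 1 of the 13 proximal tubule markers, of which 8 were called up and 0 down in Spns1 KO. In FeO, Itgb5, an integrin subunit that binds osteopontin, rose by 1.09 on the log2 scale (SE 0.22, edgeR adjusted p = 0.00155), and Hmmr, a hyaluronan receptor of dividing cells, had a log2 fold change of -1.12 (SE 0.30, edgeR adjusted p = 0.00833).

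The desmosome and keratin linker genes, which tie keratin filaments to cell junctions, were not called in FeO (0 of 9, median -0.31, all genes 19.7% down) and fell for 3 of 9 in Spns1 KO (median -0.54, all genes 7.55% down). The 3 were Dsg2, a desmosomal cadherin, Pkp2 (plakophilin 2) and Jup (plakoglobin), at log2 fold changes of -0.60 (SE 0.18), -0.54 (SE 0.12) and -0.54 (SE 0.15), with edgeR adjusted p values of 0.0258, 0.00488 and 0.0196. Krt8 and Krt18 rose in FeO without a call among these linkers.

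The genes whose pattern was most like each remaining marker over the 13 libraries were Mrpl48 for Spp1 (Pearson r = 0.975), Tspan8 for Clu (0.971), Ube2b for Cd44 (0.942), Lsm5 for Lcn2 (0.939), Tnfsf13b for Sox9 (0.922), Iba57 for Krt20 (0.884), Chd9 for Havcr1 (0.822) and Fcgbp for Vcam1 (0.82). The Spearman rho values in that order were 0.962, 0.951, 0.945, 0.923, 0.874, 0.857, 0.637 and 0.819. Atp6v1g3, a proton pump subunit of intercalated cells, also ranked high for Clu (r = 0.953, rho = 0.907). These are the closest of 12200 genes and are given as a description.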

How the data were processed

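Thiouracil-tagged RNA from mouse kidneys was sequenced on an Illumina NovaSeq. The authors deposited an estimated count per gene symbol and library, held as whole numbers and not normalized. The submitters' processing notes name bcl2fastq 2.19, kallisto 0.44.0 and GRCm38, whereas the study's methods name Trimmomatic, STAR and HTSeq, so which counter made the table is not settled here, nor is the use of strand. Groups came from the labels, and no sample was left out. Genes were filtered with filterByExpr, scaled with TMM and tested in a single edgeR 4.0.16 fit of all 13 libraries (R 4.3.3) by the quasi-likelihood test with Benjamini-Hochberg adjustment, with no replicate block. The limits of 0.05 on adjusted p and 0.5 on the log2 fold change are those of the study, which used DESeq2. The fit was run on counts simulated from its own estimates of spread, with no length trend between libraries. That run checked the code and cannot show that the calls here are sound. Libraries of a group differed beyond sampling noise in all 22 pairs (chi-square per degree of freedom 7.46 for WT 1 and WT 2, 34.73 to 273.1 for the others), so each was counted as a sample, although separate libraries of 1 mouse could differ this way too. Depth per library is given with the results. Gene positions and transcript lengths are from GENCODE M21 on GRCm38, and 16187 of the genes tested (98.3%) had a length.

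Other fits used RLE size factors, library totals, DESeq2 1.42.0, limma-voom (limma 3.58.1), no filter on low counts, removal of each library's length and GC trend, a replicate block, only the 2 groups compared, and each library left out in turn. Named related genes are up to 4 per list with the largest absolute log2 fold change among those called in either model at a mean of at least 20 counts, besides Lrp2. Likeness was the Pearson correlation of log2 CPM (prior count 2). The markers, lists and rules were chosen with earlier results of these data known. Marker list genes missing from the table were left out.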

Additional observations from a re-analysis of the deposited data

Results flagged for a closer look

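The change against WT differed between Spns1 KO and FeO, by edgeR's test of the 2 groups against each other, for 4 markers: Havcr1 (log2 fold change of Spns1 KO against FeO -4.25), Krt8 (-1.0), Krt18 (-1.53) and Cd44 (-2.28). The groups' ranges were separate for Krt8, Krt18 and Cd44 and overlapped for Havcr1.

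In 4 of the 30 groups of libraries examined, 10 markers in 3 groups, a single library stood apart from the others on the log2 scale, where chance sets about 1 in 20 groups apart. Vcam1 was 6.275 CPM in Spns1 KO 2 and 9.465 to 10.29 CPM in the other 3. Clu was 80.42 CPM in WT 5 and 43.85 to 50.23 CPM in the other 4. Sox9 was 1.574 CPM in FeO 4 and 0.5128 to 0.623 CPM in the other 3, and Cd44 was 5.978 CPM in Spns1 KO 3 and 2.501 to 2.802 CPM in the other 3.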

How the results depend on the processing

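Of the 10 marker calls, 8 were made in every fit. The exceptions were Lcn2 in FeO against WT, lost after trend removal for length and GC (0.64), and Havcr1 in Spns1 KO against FeO, lost under limma-voom, under the replicate block and in 5 fits without a library. The number of markers called in Spns1 KO against WT, 1 in the main fit, was 2 with RLE size factors, no filter or the replicate block, 3 with library totals, limma-voom or only the 2 groups compared, 4 with DESeq2, and 1 to 3 with a library left out. The related genes called there, 22, ranged from 11 to 36 with a library left out. The replicate numbers did not pair the libraries: in 12 same-numbered pairs r was -0.296 to 0.256, over 0.1 in 4. With the replicate block 15 related genes were called in Spns1 KO against WT and 40 in FeO against WT. Values that changed sign were not called in any fit: Krt20 in FeO (-0.14 after trend removal, -0.063 with the replicate block, and -0.031 to 0.36 with a library left out, below 0 without FeO 1 (-0.031), FeO 3 (-0.027) or WT 5 (-0.025)), Krt8 in Spns1 KO (-0.019 with library totals, -0.15 after trend removal, and -0.036 to 0.30 with a library left out, lowest without Spns1 KO 3), Lcn2 in Spns1 KO (-0.049 after trend removal) and Sox9 in Spns1 KO against FeO (-0.034 to 0.63 with a library left out, -0.029 without Spns1 KO 4 and lowest without FeO 3). The cause of these changes was not tested. Library totals moved the median of all genes in Spns1 KO against WT from -0.045 to -0.18 and the share of calls that were up from 65.0% to 45.5%, no filter gave 75.8% up there, and library totals took it from 45.5% to 33.9% in Spns1 KO against FeO. Depth limits Havcr1 in its lowest libraries (6 to 36 counts).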
